A study of Mus musculus with 24 samples.

Results

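The genes described here encode the machinery that copies DNA in S phase, 41 of the 25965 entries of the expression table. They were chosen by name, as entries equal to 1 of 41 gene symbols, and fall into 8 roles: the origin recognition complex, licensing factors with the MCM2-7 helicase core, helicase activation, DNA polymerase alpha-primase, the sliding clamp with its loader, DNA polymerases delta and epsilon, Okazaki fragment maturation, and the single-strand DNA binding protein RPA. RNA-seq was performed on male C57/Bl6 mouse embryonic stem cells (mESCs), expanded in 2i medium and differentiated by weaning into serum-containing medium. The cells received shRNA virus on day 2 and puromycin on day 3, and RNA was taken on days 4, 5, 6 and 7. The 3 groups carried a nonsilencing hairpin (Nons, 1 culture), 1 of 2 hairpins against *Smarcc1* (Smarcc1.6 or Smarcc1.7) or 1 of 2 hairpins against *Smarca4* (Smarca4.4 or Smarca4.6), and each hairpin gave 1 library per day, 20 in all. *Smarcc1* and *Smarca4* encode a core subunit and the ATPase of BAF chromatin remodelling complexes. A genotype label calls the *Smarca4* libraries a Smarcc knockdown, and the titles were followed. The 4 libraries of a further Nons culture were not analysed here. A culture means the 4 libraries of 1 hairpin, and the labels do not say whether these share a dish. The *p*-values measure the spread between 2 hairpins of a group on the same day, pooled over the 4 days.

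Replication starts where the origin recognition complex (ORC) binds DNA and, with CDC6 and CDT1, loads the MCM2-7 ring, a step that geminin blocks after S phase begins. CDC45 and GINS then turn MCM2-7 into an active helicase with the help of MCM10, DNA polymerase alpha-primase lays down primers, and the PCNA clamp, placed by replication factor C (RFC), holds polymerases delta and epsilon on the template. FEN1 and LIG1 join Okazaki fragments, and RPA covers the exposed single strands. mESCs cycle fast with a short G1 phase and hold high levels of these factors, many of them transcribed under E2F control, and the cycle lengthens when they differentiate.

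Library depth was 6829596 to 27472885 reads, with the smallest library on day 5 of Smarca4.4. All 41 genes passed the filter on low values (a mean log2 rpm of at least 0). Each had at least 86 reads in every library. The targeted gene was below the Nons library of the same day in all 8 libraries of each knockdown, at 23.7% to 60.1% of Nons for *Smarcc1* and 21.6% to 55.3% for *Smarca4*. The labelled cell type was checked by its markers. The summed level of 8 pluripotency markers was 2886 to 3414 rpm (reads per 1000000 reads of the library) on day 4 and 450.3 to 1083 rpm on day 7, while 5 fibroblast or feeder markers summed to 6.79 to 12.3 rpm on day 4 and 29.6 to 125.5 rpm on day 7. By gene, 7 of the pluripotency markers were lower on day 7 and *Dppa3* was higher (1.54 on the log2 scale). Of the fibroblast or feeder markers, *Col1a1*, *Col1a2* and *Pdgfrb* were higher (3.92, 5.67 and 3.67), *Dcn* was lower (-1.65) and *Thy1* did not pass (-0.56). *Dcn* was the only one of these 5 at 0 reads, in 1 library. The part of either list in the changes by day was not tested. Libraries of the same day also differed with transcript length and GC content. Over 11393 genes, the deviation of a library from the mean of its day had a Pearson's r with log2 length between -0.44 and 0.56, and with GC content between -0.45 and 0.58. In bulk RNA, fewer cycling cells and less RNA per cycling cell cannot be told apart.

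E2F factors bind to GC-rich sites near the start of many replication genes, so promoters are shown first. They are those of 6 members that hold letters of such sites, and do not stand for the 41 genes. Of the 41 genes, 33 had an entry in the RefSeq promoter table (build GRCm38.p6), which gives 250 bases before to 50 bases after a start site. A match to the letters TTTCCCGC, TTTCGCGC, TTTGCCGC or TTTGGCGC on either strand was found in 15 of these 33 genes (45.5%), against 2.6% of all 27025 genes in the table and 2.26% of all promoters. The 6 promoters below hold such a match, which is in capitals; where matches of both strands overlap, they form 1 longer run in capitals.
Mcm5 (chr8:75109259-75109558, plus strand): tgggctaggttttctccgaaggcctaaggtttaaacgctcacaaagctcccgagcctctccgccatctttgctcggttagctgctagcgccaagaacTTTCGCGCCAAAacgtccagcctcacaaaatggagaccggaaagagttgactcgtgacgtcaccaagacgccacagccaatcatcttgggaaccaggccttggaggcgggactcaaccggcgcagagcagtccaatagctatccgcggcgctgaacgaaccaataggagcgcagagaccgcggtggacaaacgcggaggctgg
Mcm6 (chr1:128359656-128359955, minus strand): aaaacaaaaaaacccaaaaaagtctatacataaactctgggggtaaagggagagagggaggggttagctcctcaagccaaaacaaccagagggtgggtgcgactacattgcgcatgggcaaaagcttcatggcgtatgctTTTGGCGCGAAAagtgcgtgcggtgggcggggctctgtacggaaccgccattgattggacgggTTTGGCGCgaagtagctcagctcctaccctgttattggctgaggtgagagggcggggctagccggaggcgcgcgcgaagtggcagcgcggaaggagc
Cdc6 (chr11:98907901-98908200, plus strand): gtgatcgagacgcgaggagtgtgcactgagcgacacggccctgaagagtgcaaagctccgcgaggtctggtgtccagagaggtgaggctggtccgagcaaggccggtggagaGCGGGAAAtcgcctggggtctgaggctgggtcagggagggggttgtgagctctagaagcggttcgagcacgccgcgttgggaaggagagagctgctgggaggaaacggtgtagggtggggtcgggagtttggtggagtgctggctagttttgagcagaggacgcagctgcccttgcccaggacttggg
Pola1 (chrX:93632106-93632405, minus strand): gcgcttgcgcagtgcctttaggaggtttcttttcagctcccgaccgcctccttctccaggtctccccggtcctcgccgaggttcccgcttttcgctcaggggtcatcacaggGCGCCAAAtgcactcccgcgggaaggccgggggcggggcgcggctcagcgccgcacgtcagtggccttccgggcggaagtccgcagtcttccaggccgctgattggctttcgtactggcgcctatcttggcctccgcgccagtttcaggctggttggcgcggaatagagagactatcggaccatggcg
Pole2 (chr12:69228141-69228440, minus strand): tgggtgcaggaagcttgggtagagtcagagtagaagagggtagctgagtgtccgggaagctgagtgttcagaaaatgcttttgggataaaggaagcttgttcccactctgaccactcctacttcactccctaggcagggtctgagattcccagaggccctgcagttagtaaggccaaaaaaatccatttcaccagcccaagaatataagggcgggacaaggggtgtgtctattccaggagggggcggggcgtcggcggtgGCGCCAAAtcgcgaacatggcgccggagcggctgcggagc
Orc3 (chr4:34614893-34615192, minus strand): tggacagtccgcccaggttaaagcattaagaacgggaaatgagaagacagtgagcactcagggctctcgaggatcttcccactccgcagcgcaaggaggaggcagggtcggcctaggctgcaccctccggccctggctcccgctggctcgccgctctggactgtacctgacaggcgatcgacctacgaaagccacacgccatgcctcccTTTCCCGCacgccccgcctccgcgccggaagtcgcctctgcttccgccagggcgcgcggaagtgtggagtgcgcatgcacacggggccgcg
The *Mcm5* promoter held an overlapping pair of matches, and *Mcm6* held a similar pair and a further match nearer to the start. *Cdc6* and *Pola1* each held 1 match at 138 bases before the start, and *Pole2* held its match 11 bases after it. CCAAT stood in 21 of the 33 genes (63.6%, against 41.1% of all genes) and TTTGAA, the letters of the CHR element of late cell cycle genes, in 5 (15.2%, against 20.2%). From day 4 to 7, 13 of the 15 genes with the E2F letters and 14 of the 18 without them fell, while *Orc3*, which holds a match, rose. The median log2 change was -0.97 in the 15 with and -0.91 in the 18 without. *Mcm2*, *Rpa2*, *Fen1*, *Mcm10*, *Pcna*, *Cdc45* and *Pold2* were among the latter. A match describes letters in this window and does not show that a factor binds there.

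Levels were compared between genes per kilobase of the longest coding transcript (GENCODE vM21). On day 4 *Pcna*, the clamp, was at 227 ± 12.1 rpm per kb (SD, n = 5 libraries) and *Mcm2* at 224 ± 5.45, ahead of *Mcm5* at 177 ± 4.99, *Mcm3* at 169.8 ± 13.4 and *Mcm7* at 154 ± 4.10. *Mcm4* and *Mcm6*, which encode neighbours in the same 6-membered ring, were lower at 99.3 ± 8.90 and 97.7 ± 12.4 rpm per kb. The ranges of *Mcm4* and *Mcm6* over the 5 libraries overlapped each other and lay below those of the other 4 MCM genes. The lowest of the 41 was *Gins3*, a GINS subunit, at 6.47 ± 0.277 rpm per kb, while its partner *Gins4* was at 46.4 ± 3.07. On day 7 *Pcna* was still first at 99.4 ± 15.7, *Mcm7* was second at 75.7 ± 10.4, and *Mcm2* was seventh at 64.4 ± 9.10 rpm per kb.

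**Figure D1:**
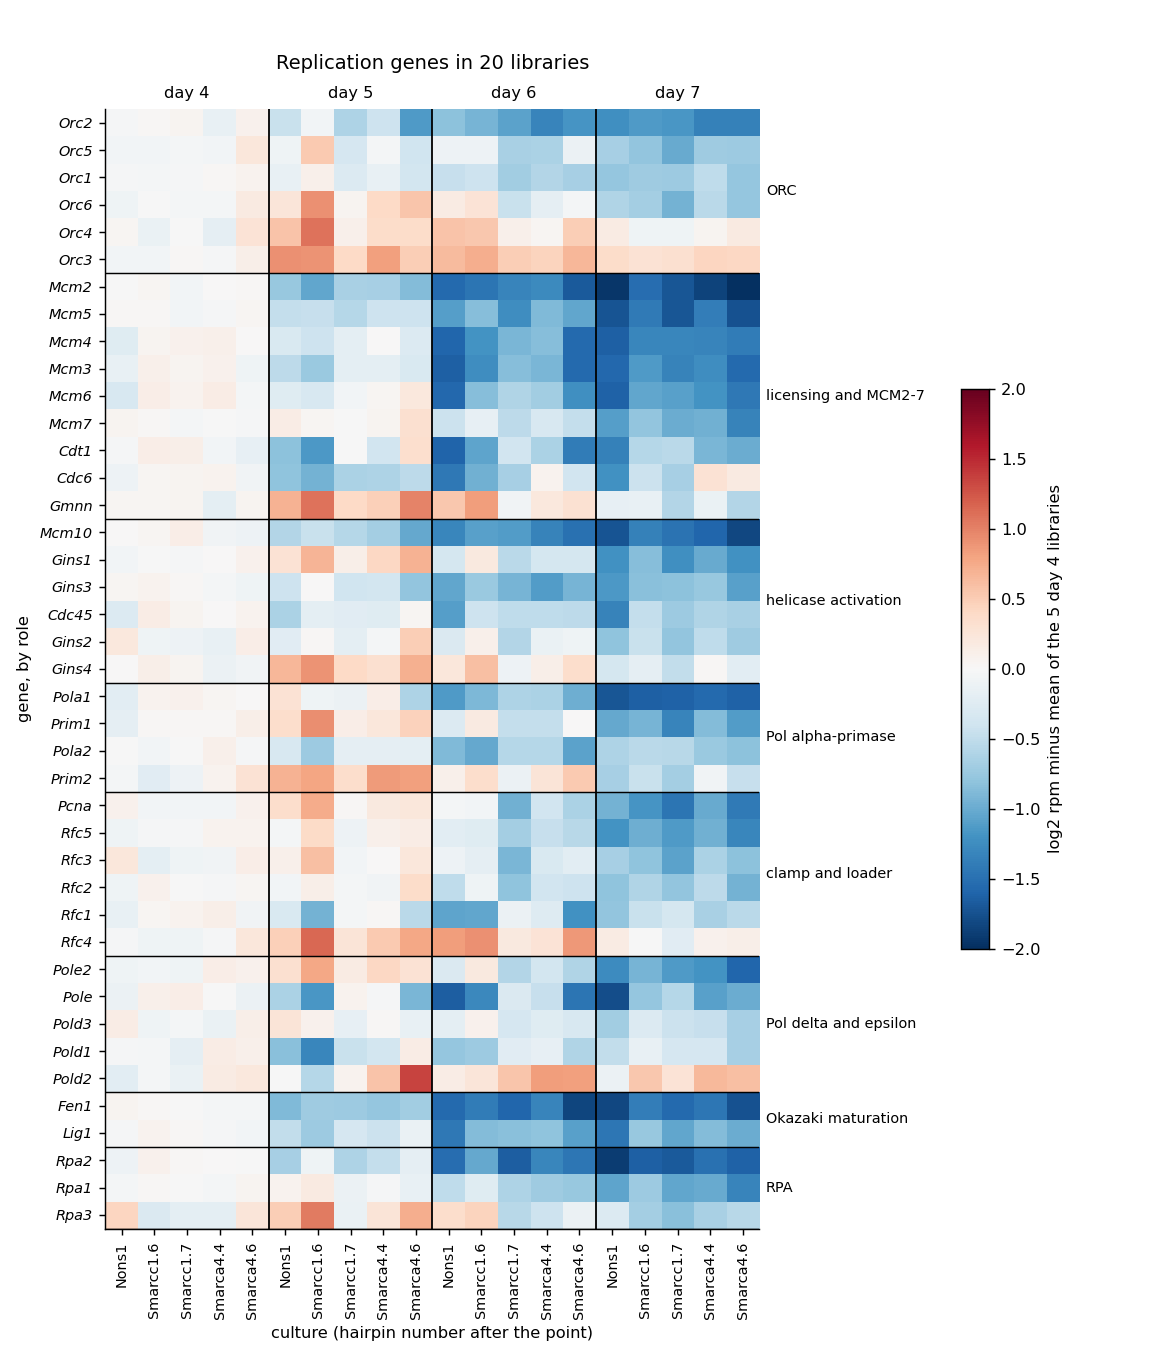
Heat map of the 41 genes (rows, by role) in the 20 libraries (columns, by day and culture); colour is log2 rpm minus the mean of the 5 day 4 libraries of that gene. Nearly all rows turned blue by day 7 in all 5 cultures, *Orc3* stayed red, and on day 5 some genes were above and others below day 4.

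The first question was how the replication genes changed over differentiation. From day 4 to day 7, averaged over the 3 groups, 33 of the 41 genes fell and 1 rose (limma, Benjamini-Hochberg adjusted *p* under 0.05), while 28.8% of the 13296 genes tested fell and 35.7% rose. The median log2 change of the 41 genes was -0.95, or 51.7% of the day 4 level, and that of all genes tested was 0.08. In 31 of the 41 genes every day 7 library lay below every day 4 library, which held for 28.2% of all genes tested. The change went down in all 5 cultures for 34 genes and up in all 5 for 2, counts that stand without a share of all genes. Taken by group within the same fit, 22 genes fell in Nons, 26 with *Smarcc1* knockdown and 27 with *Smarca4* knockdown, and none rose in any of the 3 groups, also at an unadjusted *p* under 0.05. Of all 13296 genes tested, 1906 fell and 2342 rose in Nons. With *Smarcc1* knockdown 2453 fell and 3957 rose, and with *Smarca4* knockdown 2799 fell and 3604 rose. Nons had 1 library per day, so its test uses the spread between the hairpins of the knockdown groups.

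Licensing and the helicase core held the largest fall. *Mcm2* was at 749 rpm in Nons, 775 and 728 rpm with the 2 *Smarcc1* hairpins and 756 and 768 rpm with the 2 *Smarca4* hairpins on day 4. On day 7 it was at 196 rpm in Nons, 263 and 230.0 rpm with the 2 *Smarcc1* hairpins and 209.8 and 186 rpm with the 2 *Smarca4* hairpins. All day 7 libraries were far below all day 4 libraries, and the level fell to 28.1% of day 4 (log2 change -1.83 with SE 0.13, adjusted *p* = 9e-08). *Mcm5* was at 611 rpm in Nons, 610.1 and 576 rpm with the 2 *Smarcc1* hairpins and 588 and 613 rpm with the 2 *Smarca4* hairpins on day 4, and at 181 rpm in Nons, 225 and 184 rpm with the 2 *Smarcc1* hairpins and 231 and 179 rpm with the 2 *Smarca4* hairpins on day 7. It fell to 32.5% (log2 change -1.62 with SE 0.13, adjusted *p* = 2.2e-07). *Mcm4*, *Mcm3*, *Mcm6* and *Mcm7* also fell, with log2 changes of -1.40, -1.38, -1.28 and -1.06, so that all 6 subunits of the ring were lower. Of the loaders, *Cdt1* fell by 0.95 and *Cdc6* by 0.49 on the log2 scale, averaged over the 3 groups. The log2 change of *Cdc6* was -1.12 in Nons, -0.48 and -0.71 with the 2 *Smarcc1* hairpins, and 0.23 and 0.25 with the 2 *Smarca4* hairpins, so that it was higher on day 7 in both *Smarca4* cultures. *Gmnn*, which encodes geminin, the inhibitor of CDT1, was at 108 rpm in Nons, 109 and 109.7 rpm with the 2 *Smarcc1* hairpins and 92.2 and 110.0 rpm with the 2 *Smarca4* hairpins on day 4 and at 94.4 rpm in Nons, 95.2 and 70.3 rpm with the 2 *Smarcc1* hairpins and 96.2 and 70.05 rpm with the 2 *Smarca4* hairpins on day 7. These ranges overlapped, and *Gmnn* did not pass the test (log2 change -0.30 with SE 0.21, adjusted *p* = 0.23, interval -0.76 to 0.15).

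The subunits of ORC did not move together. *Orc2* was at 262 rpm in Nons, 269 and 274 rpm with the 2 *Smarcc1* hairpins and 239.8 and 281 rpm with the 2 *Smarca4* hairpins on day 4. On day 7 it was at 113 rpm in Nons, 121 and 118 rpm with the 2 *Smarcc1* hairpins and 104 and 104 rpm with the 2 *Smarca4* hairpins, below every day 4 value (log2 change -1.24 with SE 0.16, adjusted *p* = 1.7e-05). *Orc5*, *Orc1* and *Orc6* fell less, by 0.75, 0.71 and 0.68 on the log2 scale, and *Orc4* had a change of 0.06 that did not pass the test. *Orc3* was the only gene of the 41 that rose, from 80.4 to 90.8 rpm over the 5 libraries of day 4 to 102 to 113 rpm on day 7. The 2 ranges did not overlap, and the rise was small (log2 change 0.37 with SE 0.13, adjusted *p* = 0.024). It lost the threshold with the libraries centred on the median gene (log2 change 0.20, adjusted *p* = 0.31 by limma), in each group alone, and without Smarcc1.6, Smarca4.4 or Smarca4.6.

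Helicase activation was led by *Mcm10*, at 238 rpm in Nons, 242 and 259 rpm with the 2 *Smarcc1* hairpins and 224 and 219.7 rpm with the 2 *Smarca4* hairpins on day 4. The day 7 libraries were at 71.1 rpm in Nons, 92.98 and 85.00 rpm with the 2 *Smarcc1* hairpins and 78.6 and 66.8 rpm with the 2 *Smarca4* hairpins, and the groups of libraries lay far apart (log2 change -1.62 with SE 0.11, adjusted *p* = 8.3e-08). *Cdc45* fell by 0.81 on the log2 scale, and 3 of the 4 GINS genes fell, by 1.11 for *Gins1*, 0.97 for *Gins3* and 0.71 for *Gins2*. *Gins4* had a log2 change of -0.26 and did not pass the test.

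All 4 genes of DNA polymerase alpha-primase fell. *Pola1*, the catalytic subunit, was at 106 rpm in Nons, 129 and 131 rpm with the 2 *Smarcc1* hairpins and 127 and 124 rpm with the 2 *Smarca4* hairpins on day 4. On day 7 the 5 libraries were within a narrow range, with 37.6 rpm in Nons, 39.7 and 39.9 rpm with the 2 *Smarcc1* hairpins and 41.7 and 40.1 rpm with the 2 *Smarca4* hairpins. The level fell to 32.8% of day 4 (log2 change -1.61 with SE 0.15, adjusted *p* = 1.1e-06). The primase subunits *Prim1* and *Prim2* fell by 1.01 and 0.49 on the log2 scale and the accessory subunit *Pola2* by 0.65.

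*Pcna* was at 365 rpm in Nons, 331 and 330.0 rpm with the 2 *Smarcc1* hairpins and 331 and 364 rpm with the 2 *Smarca4* hairpins on day 4. On day 7 it was at 178 rpm in Nons, 151 and 125 rpm with the 2 *Smarcc1* hairpins and 170.3 and 129 rpm with the 2 *Smarca4* hairpins (log2 change -1.17 with SE 0.19, adjusted *p* = 0.00016). Its loader genes were uneven: *Rfc5*, *Rfc3* and *Rfc2* fell by 1.11, 0.82 and 0.73 on the log2 scale, while *Rfc1* (-0.57) and *Rfc4* (0.06) did not pass the test. The polymerases split likewise. *Pole2*, an accessory subunit of polymerase epsilon, was at 35.5 rpm in Nons, 36.2 and 35.3 rpm with the 2 *Smarcc1* hairpins and 41.2 and 40.04 rpm with the 2 *Smarca4* hairpins on day 4 and at 15.8 rpm in Nons, 19.8 and 17.1 rpm with the 2 *Smarcc1* hairpins and 16.4 and 12.5 rpm with the 2 *Smarca4* hairpins on day 7, with no overlap (log2 change -1.21 with SE 0.18, adjusted *p* = 6.2e-05). *Pole*, its catalytic subunit, fell by 1.14 and *Pold3* by 0.56 on the log2 scale, while *Pold1*, the catalytic subunit of polymerase delta, and its partner *Pold2* had log2 changes of -0.41 and 0.34 and did not pass.

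Both genes of Okazaki fragment maturation fell. *Fen1*, the flap nuclease, was at 153 rpm in Nons, 148 and 146 rpm with the 2 *Smarcc1* hairpins and 143 and 142 rpm with the 2 *Smarca4* hairpins on day 4. By day 7 the level was 41.4 rpm in Nons, 56.4 and 49.6 rpm with the 2 *Smarcc1* hairpins and 53.7 and 44.03 rpm with the 2 *Smarca4* hairpins, less than the lowest day 4 value in each library (log2 change -1.64 with SE 0.13, adjusted *p* = 2.3e-07). *Lig1* fell by 1.09 on the log2 scale. All 3 RPA genes fell, led by *Rpa2*, at 258 rpm in Nons, 295 and 282 rpm with the 2 *Smarcc1* hairpins and 278 and 278 rpm with the 2 *Smarca4* hairpins on day 4. Its day 7 level was 74.4 rpm in Nons, 89.8 and 86.5 rpm with the 2 *Smarcc1* hairpins and 98.9 and 90.7 rpm with the 2 *Smarca4* hairpins (log2 change -1.69 with SE 0.15, adjusted *p* = 7.1e-07), beside falls of 1.03 for *Rpa1* and 0.62 for *Rpa3* on the log2 scale.

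**Figure D2:**
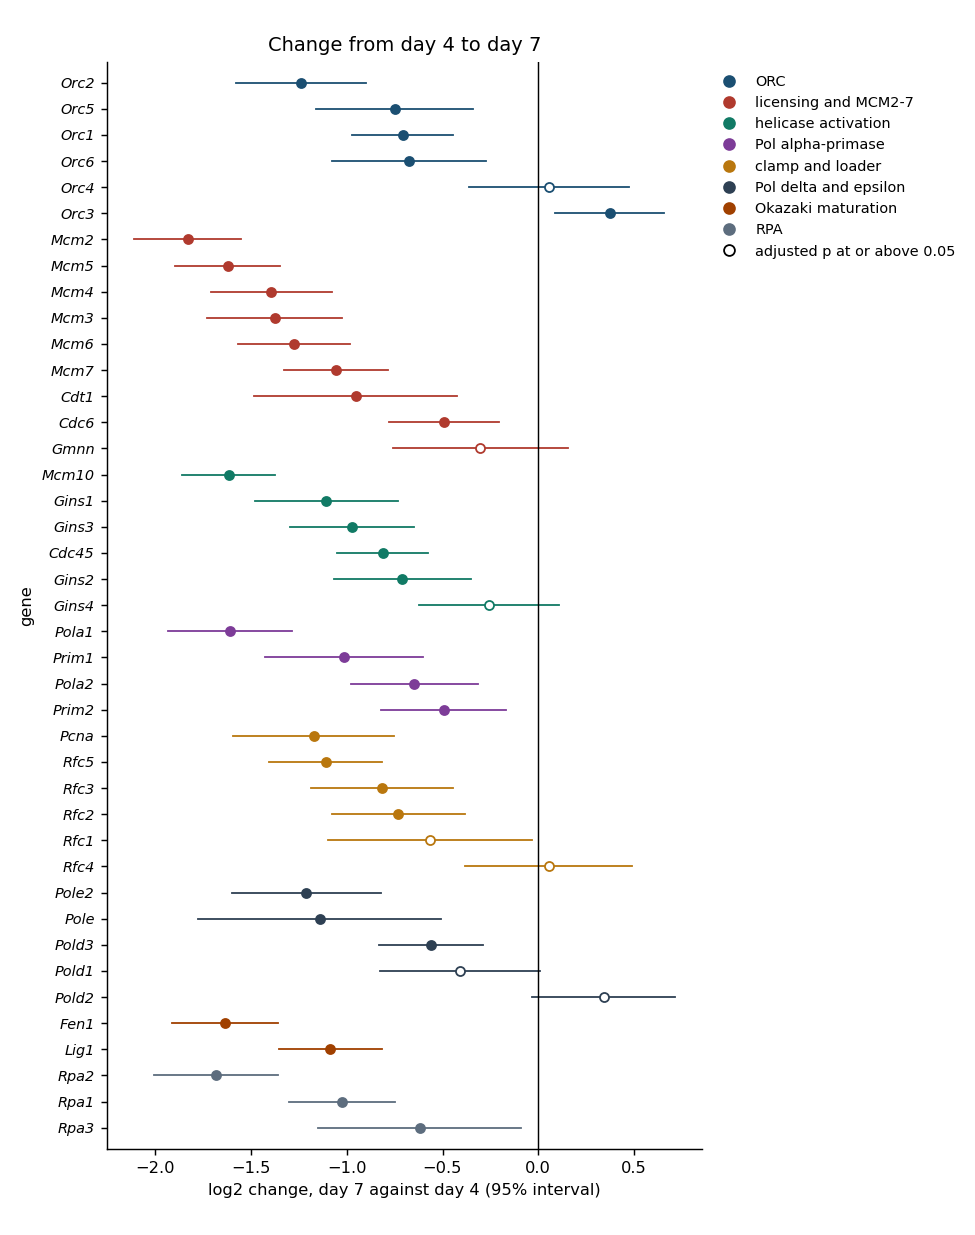
Log2 change from day 4 to day 7 (horizontal axis, mean of the 3 groups) of each gene, with its 95% interval and coloured by role; open points did not pass the test. *Mcm2* was lowest at -1.83 and *Orc3* highest at 0.37, and 7 points are open.

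The second question was when the genes changed. The steps were uneven between genes. The mean of the 3 groups was highest on day 4 in 21 genes, on day 5 in 18, on day 6 in 2 and on day 7 in none. For some genes the means of days 4 and 5 were too close to tell which was higher, as for *Rpa1*, *Pola1* and *Mcm6*, with log2 changes of 0.01, 0.01 and -0.05. From day 4 to day 5, 10 genes fell and 5 rose, beside 19.2% and 19.5% of all genes tested, with a median of -0.05. The 10 that fell were *Mcm2*, *Fen1*, *Cdc6*, *Mcm10*, *Pold1*, *Orc2*, *Mcm5*, *Lig1*, *Rpa2* and *Gins3*, led by *Mcm2* (log2 change -0.79 with SE 0.13, adjusted *p* = 0.00056) and *Fen1* (log2 change -0.79 with SE 0.13, adjusted *p* = 0.00054). The 5 that rose were *Orc3* (log2 change 0.75 with SE 0.13, adjusted *p* = 0.00087), *Gmnn* (log2 change 0.72 with SE 0.21, adjusted *p* = 0.018), *Prim2*, *Rfc4* and *Gins4*. *Gmnn* was at 171 rpm in Nons, 223 and 139 rpm with the 2 *Smarcc1* hairpins and 147 and 211 rpm with the 2 *Smarca4* hairpins on day 5, each above its own culture on day 4. Smarcc1.6 was the highest and Smarcc1.7 the lowest of the 5.

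From day 5 to day 6, 24 of the 41 genes fell, against 15.3% of all genes tested, and none rose (limma; none at an unadjusted *p* under 0.05, and none by limma-voom). The median log2 change was -0.51, beside -0.01 over all genes. *Mcm4* (log2 change -1.03 with SE 0.15, adjusted *p* = 0.00023), *Mcm6* (log2 change -0.99 with SE 0.13, adjusted *p* = 0.00018) and *Rpa2* (log2 change -0.97 with SE 0.15, adjusted *p* = 0.00045) had the largest falls of this step. On day 5 *Mcm6* was at 357 rpm in Nons, 339.7 and 408 rpm with the 2 *Smarcc1* hairpins and 432 and 490.1 rpm with the 2 *Smarca4* hairpins, within or near its day 4 values. On day 6 it was at 142 rpm in Nons, 233 and 278 rpm with the 2 *Smarcc1* hairpins and 260.5 and 180.2 rpm with the 2 *Smarca4* hairpins, below all libraries of day 5. From day 6 to day 7, 15 genes fell, against 10.6% of all genes tested, and none rose (limma; 1 at an unadjusted *p* under 0.05, none by limma-voom). These were led by *Pole2* (log2 change -0.90 with SE 0.18, adjusted *p* = 0.0042), *Gins1* (log2 change -0.83 with SE 0.17, adjusted *p* = 0.0054), *Prim1* (log2 change -0.83 with SE 0.19, adjusted *p* = 0.0089) and *Pcna* (log2 change -0.81 with SE 0.19, adjusted *p* = 0.011). *Pcna* was at 439 rpm in Nons, 572 and 348 rpm with the 2 *Smarcc1* hairpins and 394 and 402 rpm with the 2 *Smarca4* hairpins on day 5, and at 335 rpm in Nons, 329 and 177 rpm with the 2 *Smarcc1* hairpins and 264 and 221 rpm with the 2 *Smarca4* hairpins on day 6. It was thus highest on day 5 in each culture and fell over the last 2 steps. Of the 10 genes that had fallen from day 4 to 5, *Mcm5* (-0.58, adjusted *p* = 0.0068) and *Mcm10* (-0.34, adjusted *p* = 0.039) fell in this step too (limma). The log2 changes of the other 8 did not pass and were between -0.36 (*Mcm2*) and 0.29 (*Cdc6*).

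The step from day 4 to 5 moved with transcript length. Its log2 change had a Pearson's r with log2 length of -0.26 over 11393 genes and of -0.58 over the 41 genes, and the last step had 0.36 and 0.45. These are correlations across genes, which are not independent replicates. The 21 genes highest on day 4 had a median transcript length of 3371 bases and the 18 highest on day 5 one of 1840 bases. With length and GC content regressed out of each library, an alternative added after the data were seen, all 15 calls of the day 4 to 5 step were made again, among 15 genes lower and 6 higher. The rise of *Gmnn* was then 0.40 in place of 0.72 and that of *Rfc4* 0.24 in place of 0.61 on the log2 scale. The change of *Pcna*, which passed the test in neither fit, was 0.02 in place of 0.30. No share of all genes is given for the corrected counts at any step. The later steps changed as well. From day 5 to 6 the correction gave 28 genes lower and 1 higher, *Rfc4* (0.21 in place of 0.04). From day 6 to 7 it gave 15 lower, 12 of them among the 15 called without it, and 1 higher, *Rpa3*, which turned from -0.56 to 0.36. *Mcm2*, not called at this step without the correction, was lower with it (-0.56 in place of -0.36, adjusted *p* = 0.00059 by limma). The median of the 41 genes at this last step was -0.17 with the correction and -0.33 without it. The day 5 rises of *Gmnn*, *Rfc4* and *Gins4* (0.35 in place of 0.61) thus depended on this correction by more than 1.5 times, as did the change of *Pcna*. The rises of *Orc3* (0.57 in place of 0.75) and *Prim2* (0.54 in place of 0.71) depended on it less. The numbers of calls at the 3 steps also depended on single hairpins: without Smarca4.6, 6, 13 and 2 genes passed at the 3 steps, and without Smarca4.4, 8, 12 and 8. These counts too stand without a share of all genes.

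**Figure D3:**
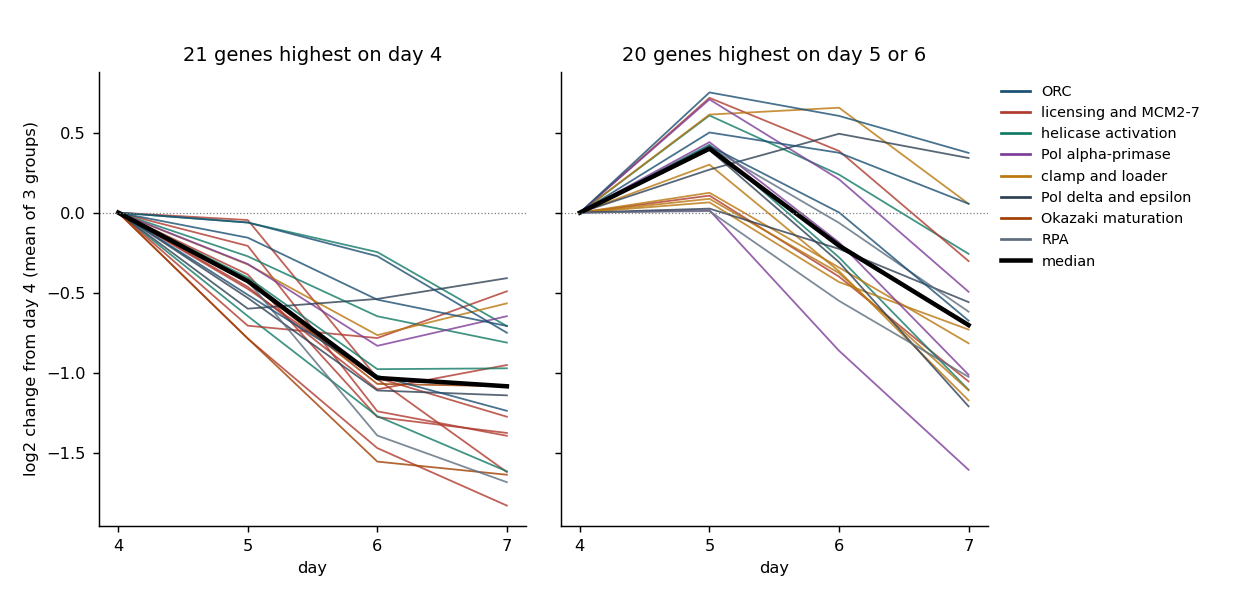
Mean log2 level by day relative to day 4 (vertical axis, mean of the 3 groups) for the 21 genes highest on day 4 (left) and the 20 highest on day 5 or 6 (right), with the median in black; lines are genes, coloured by role. Genes were placed in a panel by the day of their highest mean, which fixes the shape at the start of each panel and is not a test of separate courses; by day 7 the changes ran from -1.83 (*Mcm2*) to 0.37 (*Orc3*).

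The third question was whether *Smarcc1* or *Smarca4* knockdown changed the replication genes. Most did not pass the test, and those that did were higher than in Nons. Over the 4 days, 2 of the 41 genes were higher with *Smarcc1* knockdown, against 7.54% of all genes tested, and 3 were higher with *Smarca4* knockdown, against 4.75%. None was lower in either comparison, where 3.08% and 1.96% of all genes were (limma; none of the 41 at an unadjusted *p* under 0.05 either, and none by limma-voom). The median log2 change of the 41 genes was 0.09 with *Smarcc1* knockdown and 0.03 with *Smarca4* knockdown, and that of all genes tested was 0.06 in both. Without Smarcc1.6 the median with *Smarcc1* knockdown was -0.06, and with centring on the median gene that with *Smarca4* knockdown was -0.05. The called genes made up 4.88% and 7.32% of the 41, near the background of genes called higher. Both comparisons use the same 4 Nons libraries, 1 culture, so that they are not independent of each other.

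*Cdc45* was called in both comparisons. It was at 68.5 rpm in Nons, 91.01 and 85.2 rpm with the 2 *Smarcc1* hairpins and 82.7 and 86.7 rpm with the 2 *Smarca4* hairpins on day 4, and at 52.9 rpm in Nons, 71.8 and 70.4 rpm with the 2 *Smarcc1* hairpins and 69.7 and 84.8 rpm with the 2 *Smarca4* hairpins on day 5. On day 6 it was at 38.5 rpm in Nons, 61.9 and 57.7 rpm with the 2 *Smarcc1* hairpins and 57.9 and 57.6 rpm with the 2 *Smarca4* hairpins, and on day 7 at 32.5 rpm in Nons, 59.5 and 49.95 rpm with the 2 *Smarcc1* hairpins and 54.1 and 52.5 rpm with the 2 *Smarca4* hairpins. All 16 knockdown libraries were above the Nons library of their day. The level was 146% of that in Nons with *Smarcc1* knockdown (log2 change 0.54 with SE 0.10, adjusted *p* = 0.0039) and 145% with *Smarca4* knockdown (log2 change 0.54 with SE 0.10, adjusted *p* = 0.0072). With the culture series as replicate block the 2 adjusted *p* were 0.033 and 0.060 (limma). The call with *Smarca4* knockdown was lost in 3 of 14 alternatives, and that with *Smarcc1* knockdown was kept in all 14.

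*Cdc6*, the loader of the MCM ring, had the largest difference in *Smarca4* knockdown. On day 4 all cultures were near each other, with 92.6 rpm in Nons, 102 and 102 rpm with the 2 *Smarcc1* hairpins and 103 and 94.5 rpm with the 2 *Smarca4* hairpins. On day 5 all were lower, with 56.4 rpm in Nons, 51.5 and 64.04 rpm with the 2 *Smarcc1* hairpins and 64.1 and 68.8 rpm with the 2 *Smarca4* hairpins. On day 6 it was at 36.6 rpm in Nons, 51.00 and 62.1 rpm with the 2 *Smarcc1* hairpins and 104 and 75.6 rpm with the 2 *Smarca4* hairpins, and on day 7 at 42.6 rpm in Nons, 73.3 and 62.5 rpm with the 2 *Smarcc1* hairpins and 121 and 112 rpm with the 2 *Smarca4* hairpins. Nons was lowest on days 6 and 7, the *Smarcc1* libraries were between, and the *Smarca4* libraries were highest, on day 7 above their own day 4 values. Over the 4 days the level was 170.0% of that in Nons with *Smarca4* knockdown (log2 change 0.77 with SE 0.12, adjusted *p* = 0.0025), which kept the threshold in each of the 14 alternatives, and 129% with *Smarcc1* knockdown, which did not pass (log2 change 0.36 with SE 0.12, adjusted *p* = 0.08). The change of *Cdc6* from day 4 to 7 in *Smarca4* knockdown differed from that in Nons by 1.36 on the log2 scale (interval 0.61 to 2.10), which did not pass over all genes (adjusted *p* = 0.36 by limma).

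*Mcm6* was called with *Smarcc1* knockdown alone. On day 7 it was at 138 rpm in Nons, 205 and 199 rpm with the 2 *Smarcc1* hairpins and 184 and 156 rpm with the 2 *Smarca4* hairpins, and on day 4 at 337 rpm in Nons, 465 and 446 rpm with the 2 *Smarcc1* hairpins and 466 and 413 rpm with the 2 *Smarca4* hairpins. The day 5 value of Smarcc1.6 was below Nons and the other 7 *Smarcc1* libraries were above it (log2 change 0.47 with SE 0.12, adjusted *p* = 0.027). With *Smarca4* knockdown all 8 libraries were above Nons, and the difference did not pass the test (log2 change 0.41 with SE 0.12, adjusted *p* = 0.069). The 2 knockdowns differed from each other by only 0.06 in *Mcm6* (interval -0.16 to 0.28), so a difference between them was not shown. Without Smarcc1.6, without Smarcc1.7, or with the culture series as replicate block, the call with *Smarcc1* knockdown was lost (adjusted *p* = 0.063, 0.175 and 0.14 by limma).

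*Pold2*, the second subunit of polymerase delta, was called with *Smarca4* knockdown alone. It was at 62.5 rpm in Nons, 70.01 and 65.9 rpm with the 2 *Smarcc1* hairpins and 81.2 and 83.98 rpm with the 2 *Smarca4* hairpins on day 4, and at 71.96 rpm in Nons, 48.7 and 75.5 rpm with the 2 *Smarcc1* hairpins and 108 and 184 rpm with the 2 *Smarca4* hairpins on day 5. On day 6 it was at 80.3 rpm in Nons, 85.2 and 106 rpm with the 2 *Smarcc1* hairpins and 128 and 127 rpm with the 2 *Smarca4* hairpins, and on day 7 at 66.6 rpm in Nons, 105 and 87.3 rpm with the 2 *Smarcc1* hairpins and 113 and 110.1 rpm with the 2 *Smarca4* hairpins. All 8 *Smarca4* libraries were above Nons of their day, and the day 5 library of Smarca4.6 stood above the rest (log2 change 0.70 with SE 0.16, adjusted *p* = 0.019). That library also had the largest positive correlation of its deviations with GC content (r = 0.58 over 11393 genes). Without day 5 the log2 change was 0.61 (adjusted *p* = 0.090 by limma), and it was 0.60 to 0.79 with either *Smarca4* hairpin left out, past the threshold in neither case. With the culture series as replicate block its adjusted *p* was 0.14 (limma). In all, 8 of the 41 genes had all 8 *Smarca4* libraries above Nons, against 9.85% of all genes tested, and 2 had all 8 *Smarcc1* libraries above, against 8.69%.

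**Figure D4:**
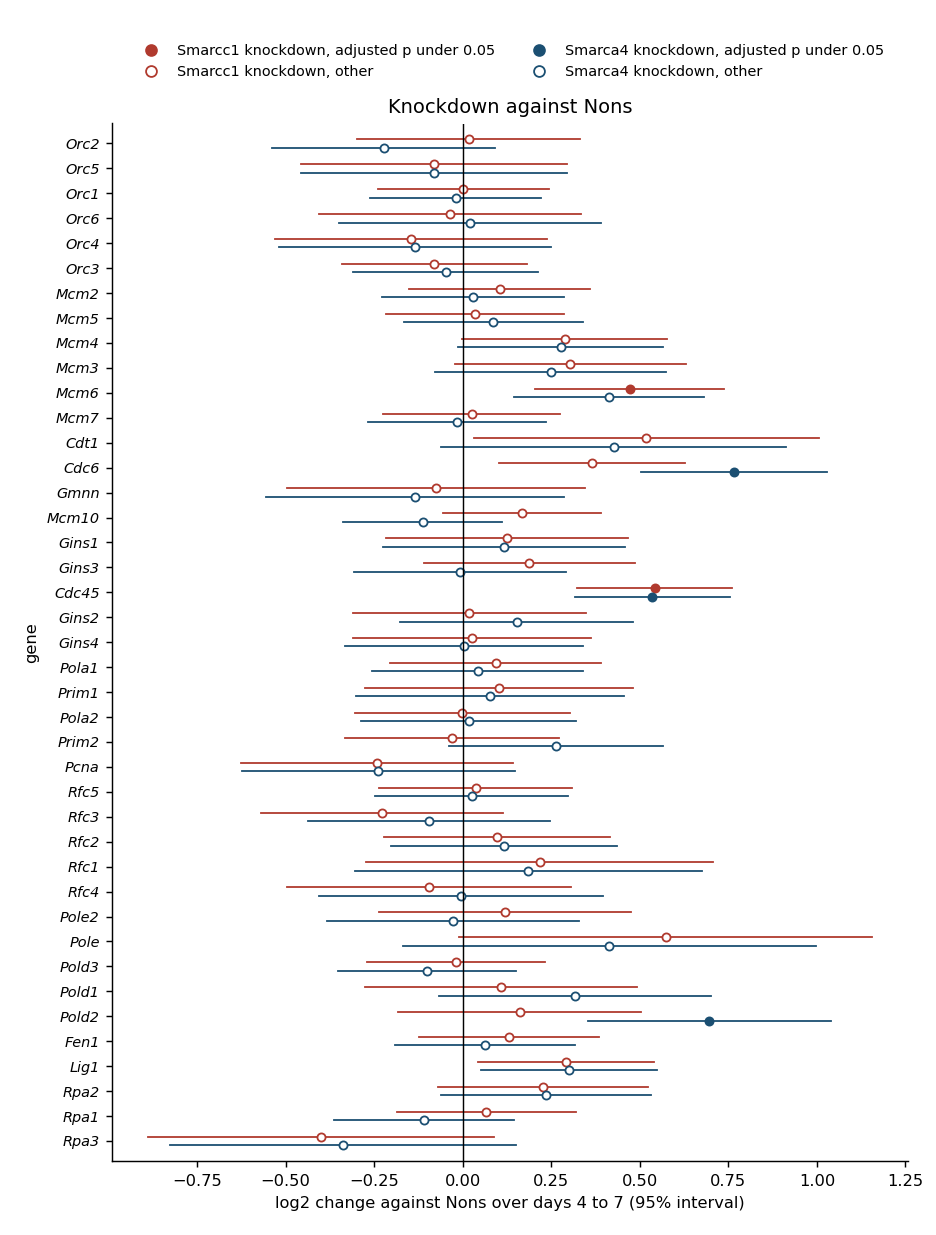
Log2 change against Nons over days 4 to 7 with its 95% interval (horizontal axis) for each gene with *Smarcc1* knockdown (red) and *Smarca4* knockdown (blue); filled points passed the test. The filled points are *Mcm6* and *Cdc45* in red and *Cdc6*, *Cdc45* and *Pold2* in blue, all to the right of 0.

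Some members that did not pass are given as values. *Cdt1* had a log2 change of 0.52 with *Smarcc1* knockdown (interval 0.03 to 1.01) and 0.43 with *Smarca4* knockdown (interval -0.06 to 0.91). *Pole* had 0.57 and 0.41, with wide intervals of -0.01 to 1.15 and -0.17 to 1.00. *Pcna* had -0.24 and -0.24, and its intervals of -0.63 to 0.14 and -0.62 to 0.15 hold 0. It was above Nons of the same day in 1 of 8 *Smarcc1* libraries and below it in all 8 *Smarca4* libraries. *Pcna* was the only 1 of the 41 genes with all 8 *Smarca4* libraries below, and no share of all genes is given for this. The 6 ORC genes had changes of -0.22 to 0.02 in the 2 comparisons. Over the 41 genes, the log2 change against Nons had a Pearson's r with log2 length of 0.49 with *Smarcc1* knockdown and 0.28 with *Smarca4* knockdown, and with GC content of 0.41 and 0.51. Over 11393 genes these correlations were weaker, at 0.15 and 0.06 with log2 length and 0.14 and 0.23 with GC content. With both regressed out of each library, 7 genes (*Cdc45*, *Cdc6*, *Lig1*, *Mcm6*, *Pole*, *Prim1* and *Rpa2*) were higher with *Smarcc1* knockdown and 6 (*Cdc45*, *Cdc6*, *Lig1*, *Mcm6*, *Pold2* and *Prim2*) with *Smarca4* knockdown, and none was lower. No share of all genes is given for this corrected fit, so these counts cannot be set against a background here. The pluripotency markers also differed: 6 of 8 were higher with *Smarcc1* knockdown and 4 of 8 with *Smarca4* knockdown, and none was lower. Their part in the differences of the replication genes was not tested.

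Between the knockdowns, 2 of the 41 genes differed, against 4.09% of all genes tested in either direction. Both were lower with *Smarcc1* than with *Smarca4* knockdown, namely *Pold2* (log2 change -0.54 with SE 0.13, adjusted *p* = 0.036) and *Cdc6* (log2 change -0.40 with SE 0.10, adjusted *p* = 0.04). The median difference of the 41 genes was 0.01, and 35 of the 41 estimates were within 0.2 of 0 on the log2 scale. Both calls were lost whichever of the 4 hairpins was left out, and with the culture series as replicate block (adjusted *p* = 0.23 and 0.24 by limma). The course from day 4 to 7 was also compared. None of the 41 genes had a change that differed from that in Nons, with 0.459% of all genes tested called for *Smarcc1* knockdown and 0.0827% for *Smarca4* knockdown. At an unadjusted *p* under 0.05 there were none for *Smarcc1* knockdown and 1, *Cdc6*, for *Smarca4* knockdown, and limma-voom called none. With 1 Nons library per day the median standard error of these differences was 0.41 on the log2 scale. Even the difference of 1.36 for *Cdc6* did not pass, so differences in course well above this standard error could go undetected.

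**Figure D5:**
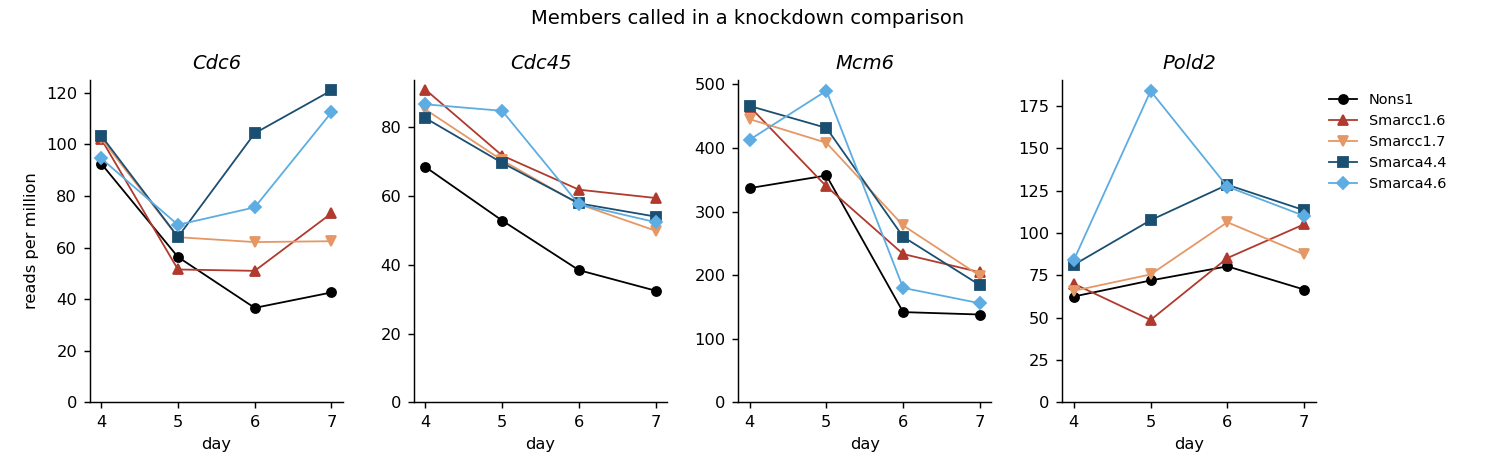
Level in rpm (vertical axis) by day of the 4 genes called in a knockdown comparison, with 1 line per culture and 1 library per point. Nons is the lowest line for *Cdc45* on all 4 days, and the 2 *Smarca4* lines of *Cdc6* rise from day 5 to day 7 while Nons stays at 56.4 rpm or less.

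Further genes of the replication pathway mostly fell over time as well. Of 23 other replication fork and initiation genes, 14 fell and 1 rose from day 4 to 7, with a median log2 change of -0.79. For this and the next lists, 28.8% of all genes tested fell and 35.7% rose. *Dscc1*, a subunit of an alternative clamp loader, had -1.97, *Recql4* had -1.81, *Clspn*, the checkpoint mediator claspin, had -1.15, and *Pold4*, the small subunit of polymerase delta, rose by 2.47. All 7 tested genes of replication-coupled chromatin assembly fell, with a median of -1.04, including *Uhrf1* (-1.74) and *Dnmt1* (-1.34), which maintain DNA methylation behind the fork, and *Chaf1b* (-1.33) of the CAF-1 histone chaperone. Of 8 genes of deoxynucleotide supply, 7 fell, with a median of -1.36, led by *Rrm2* of ribonucleotide reductase (-2.08) and *Tyms*, thymidylate synthase (-1.89), and *Samhd1*, which breaks down deoxynucleotides, rose by 1.06. None of these 38 genes was called against Nons in either knockdown by limma or by limma-voom, and 5 and 4 had an unadjusted *p* under 0.05 (limma). Among all genes tested, limma called 7.54% higher and 3.08% lower with *Smarcc1* knockdown, and 4.75% and 1.96% with *Smarca4* knockdown. Of 8 proliferation markers of G2 and mitosis, 1 fell (*Cdc20*, -0.31) and none rose, with a median of -0.14; *Mki67* had -0.18, *Cdk1* -0.11 and *Ccnb1* -0.17, and these did not pass the test. The summed level of these 8 markers was 1708 to 1842 rpm on day 4 and 1448 to 1807 rpm on day 7, and the 2 ranges overlapped.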

How the data were processed

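RNA-seq libraries (TruSeq, single-end reads of 75 bp) were aligned by the authors to mm10 with tophat or HISAT2 after trim_galore, and the deposited values are log2 rpm (library-scaled reads) from the RNA-seq quantitation of SeqMonk, not divided by length. The annotation release and the strand setting are not given in the sources used here, so overlapping genes are uncertain. The lowest value of each library equals 0.9 of a read, from which whole reads (100% of values within 0.02 of a whole number, below 1000 reads) and library totals were recovered. No column was left unmapped to a sample.

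All 20 libraries were fitted in limma 3.58.1 (R 4.3.3, lmFit and eBayes with trend) 1 coefficient per group and day (12), on the 13296 genes whose log2 rpm averaged 0 or more, and Benjamini-Hochberg adjusted *p*-values over all of them (threshold 0.05). Contrasts of days weight the 3 groups equally, and contrasts of groups average the 4 days. Spread was estimated between same-day hairpins of a gene (8 residual degrees of freedom) and pooled over the 4 days, and Nons is assumed to vary like them. The hairpins differed more on days 5 and 6. With *Smarcc1* knockdown the chi-square per gene between them was 94.5 and 81.1 on these days, beside 2.49 and 10.7 on days 4 and 7. With *Smarca4* knockdown it was 35.7 and 50.6, beside 10.05 and 12.45. The *p*-values of the steps do not take this into account. The method was tested on simulated data. Hairpin numbers name constructs and pair nothing across groups. The culture series was tried as replicate block through duplicateCorrelation. Other alternatives were filters, an added 1 rpm, median centring, quantile normalization, limma-voom on the recovered reads, leaving out each hairpin or the smallest library and, added after the data were seen, a length and GC correction (11420 genes), leaving out day 5, and single groups. Transcript length and GC content are from the longest coding transcript of GENCODE vM21 (GRCm38, the assembly of mm10). The members, roles and gene lists were chosen with earlier results of these data known. For each comparison full statistics were given for at most 12 members with the largest change among those past the threshold. Values in every library were given for at most 14, namely the largest change of each role, *Mcm5*, *Pcna*, *Cdc6*, *Gmnn* and those called in a knockdown comparison. *Orc3* in ranges, *Cdt1*, *Pole* and the promoters shown were chosen after values were seen. Figures were drawn with matplotlib in Python.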

Additional observations from a re-analysis of the deposited data

Results flagged for a closer look

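*Cdc6* and *Pold2* differed between the 2 knockdowns by the test of that difference itself. Both calls were lost with the culture series as replicate block (adjusted *p* = 0.24 for *Cdc6* and 0.23 for *Pold2* by limma) and with any 1 of the 4 hairpins left out (adjusted *p* = 0.108 to 0.24 and 0.0764 to 0.324 by limma). The log2 level of *Pold2* with *Smarcc1* knockdown was lower than with *Smarca4* knockdown by -0.54 ± 0.13 (SE; adjusted *p* = 0.036 by limma). The difference was -0.31 (adjusted *p* = 0.39) without day 5, on which Smarca4.6 had 184 rpm and Smarcc1.6 had 48.7 rpm. On days 6 and 7 the *Pold2* levels of the 2 *Smarca4* libraries were 110.1 to 128 rpm and those of the 2 *Smarcc1* libraries 85.2 to 106 rpm.

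*Cdc6* was lower with *Smarcc1* than with *Smarca4* knockdown by -0.40 ± 0.10 on the log2 scale (SE; adjusted *p* = 0.040 by limma). Its largest difference was on day 7, with 73.3 and 62.5 rpm against 121 and 112 rpm. On day 4 the 4 libraries were at 94.5 to 103 rpm. Groups had 1 or 2 libraries per day, too few to look for single libraries that stand apart.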

How the results depend on the processing

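The fall from day 4 to 7 kept its direction. The 12 named members with the largest falls and *Orc3* gave 221 values under the alternatives, of which 213 stayed on the same side of the threshold, 8 lost it (7 of *Orc3*, 1 of *Pcna* in Nons alone) and 0 changed sign. The number of members called was 22 in Nons alone (by its contrast in the joint fit) and 30 to 34 with 1 hairpin left out. The median change was -1.13 with centring on the median gene, -0.82 with the length and GC correction, -0.82 with the Nons libraries left out and -0.80 with *Smarcc1* knockdown alone. Calls at the steps ranged from 6 to 19, 12 to 22 and 2 to 18 with 1 hairpin left out. Against Nons, 1 to 2 members were called with *Smarcc1* knockdown and 1 to 3 with *Smarca4* knockdown with 1 hairpin left out, and 7 and 6 with the length and GC correction. Apart from the single groups, no share of all genes is given for the counts under any alternative. A changed count can thus not be set against a background. The median with *Smarca4* knockdown turned from 0.029 to -0.046 with median centring, so its direction depends on the scaling. The median with *Smarcc1* knockdown was -0.060 to 0.177 with 1 hairpin left out and that between the knockdowns -0.080 to 0.118, so neither direction is stable. Between the knockdowns, 1 member was called with no filter, 0 with a mean of at least 10 rpm, 0 with any 1 hairpin left out, 4 with the length and GC correction and 1 without day 5. With the culture series as replicate block (correlation 0.22), 35 members were called from day 4 to 7, 1 with *Smarcc1* knockdown, 1 with *Smarca4* knockdown and 0 between the knockdowns. Differences between the hairpins of a group correlated between days at r = 0.02 to 0.82 (*Smarcc1*) and -0.21 to 0.37 (*Smarca4*). The main fit has no term for the culture and treats the libraries of 1 hairpin on different days as independent. The cause of these changes was not tested. The comparisons with Nons rest on 1 library per day. The lowest count of a member in a library was 86 reads.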

Other observations

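Genes around the E2F switch changed in both directions from day 4 to 7. Of 17 genes of E2F factors, pocket proteins and S phase cyclins, 10 fell and 4 rose, with a median log2 change of -0.83. Among all genes tested, 28.8% fell and 35.7% rose. The activator genes *E2f2* (-2.18), *E2f3* (-1.10) and *E2f1* (-0.83), the dimer partner *Tfdp1* (-1.41) and the cyclin genes *Ccne1* (-1.83) and *Ccne2* (-1.24) fell. Genes of repressor-type E2F factors and pocket proteins moved both ways: *E2f6* (0.59), *E2f5* (0.54), *Rb1* (0.62) and *Rbl1* (0.42) rose, *E2f4* (-0.62) and *E2f8* (-1.36) fell, and *E2f7* (0.45) and *Rbl2* (0.00131) did not pass. Of 7 genes of cell cycle inhibitors 4 rose, namely *Cdkn1b* (1.90), *Cdkn2b* (1.67), *Cdkn2c* (1.20) and *Cdkn1a* (0.73), and *Cdkn1c* fell by 0.43 (limma, adjusted over all genes tested).

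With *Smarcc1* knockdown 1 of the 17 genes was higher and 1 of the 7 inhibitor genes was lower, beside 7.54% and 3.08% of all genes tested. With *Smarca4* knockdown none of the 17 passed. Of the 7 inhibitor genes 1 was then higher and 2 were lower, beside 4.75% and 1.96% of all genes tested. *E2f1* was higher with *Smarcc1* knockdown (log2 change 0.64 ± 0.16, SE, adjusted *p* = 0.022 by limma). *Cdkn1b*, which encodes p27, an inhibitor of CDK2, was lower with *Smarcc1* knockdown (-0.70 ± 0.14, adjusted *p* = 0.0059 by limma) and with *Smarca4* knockdown (-0.69 ± 0.14, adjusted *p* = 0.012 by limma). *Cdkn2c* was higher with *Smarca4* knockdown by 1.18 and *Cdkn1a* lower by -0.48 on the log2 scale. Both comparisons share the Nons libraries.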
